A study of Xiphophorus multilineatus with 4 samples.

Results

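The agrp gene encodes Agouti-related protein, a small peptide that neurons of the hypothalamus secrete. It was followed here through its single row in the count table (ENSXMAT00000009960), 1 of 18872 transcripts. The row was chosen by its identifier, which the study's own annotation pairs with agrp. That annotation covers transcripts the study selected on these same brains. The study had already reported agrp as higher in males from the low quality juvenile environment. The difference of agrp here is thus not independent evidence. In vertebrates Agouti-related protein blocks melanocortin receptors such as Mc4r, on which the melanocortin peptides cut from the pomc precursor act in the opposite way. In mammals it raises food intake, and its mRNA rises with fasting in the hypothalamus of mice and of zebrafish. The gene is known for expression in a small group of hypothalamic neurons, so that an RNA sample of the entire brain holds little of it.

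The samples were the entire brains of 4 adult *X. multilineatus* males of Y-II, a size class set by the Y chromosome, with a separate polyA RNA library for each brain. The 2 HQJE males (high quality juvenile environment, fish 15 and 11) had lived alone from 14 days of age with Tetramin and brine shrimp freely given. The 2 LQJE males (low quality juvenile environment, fish 17 and 18) had grown up in group tanks with more than 6 fish per liter and had received Tetramin once daily. All were laboratory-reared descendants of wild-caught females from the Rio Tambaque, and all 4 received the high quality adult diet. Food and density changed together, so the effects of these cannot be told apart. Total counts lay between 14260762 (LQJE fish 17) and 25531496 (LQJE fish 18), and the 398 transcripts without a count in any brain were left out, which left 18474. LQJE fish 17 stood apart from the other brains, with a Pearson correlation of log2 CPM (reads scaled to a common library size) of 0.967 to 0.970 with each of them across transcripts, against 0.983 to 0.986 among the other pairs. The identity of the samples as brain, or the share of hypothalamus in each, was not checked against markers of neurons, glia or hypothalamus, since gnrh1 was the only one of those genes that was paired with an identifier.

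The agrp transcript was lower expressed in both HQJE brains than in either LQJE brain. Its reads numbered 14 (HQJE fish 15) and 40 (HQJE fish 11), against 115 (LQJE fish 17) and 103 (LQJE fish 18). Exact Poisson 95% intervals, which cover counting error only, ran from 7.65 to 23.5 and from 28.6 to 54.5 counts in these HQJE brains, and from 94.9 to 138 and from 84.1 to 125 counts in these LQJE brains. The reads of fish 17 came from the smallest library, so its scaled level was the highest by a wider margin than its count.

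After TMM scaling, agrp stood at 0.637 CPM (HQJE fish 15) and 1.81 CPM (HQJE fish 11), against 8.34 CPM (LQJE fish 17) and 4.10 CPM (LQJE fish 18). The mean level was 1.22 ± 0.828 CPM for HQJE and 6.22 ± 2.99 CPM for LQJE (SD, n = 2 each). The level in the highest brain was 13.1 times that in the lowest, and LQJE fish 17 alone held 56.0% of the summed CPM of the 4 brains. In whole-brain RNA, fewer cells that express agrp and less agrp RNA in each cell cannot be told apart.

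**Figure D1:**
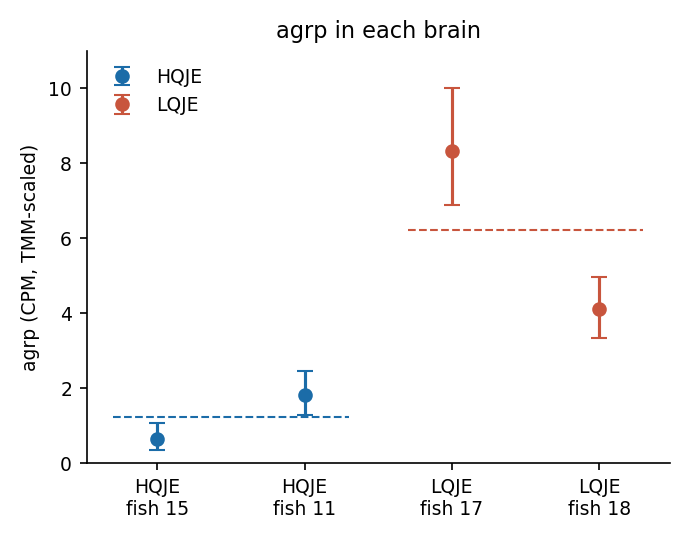
The TMM-scaled level of agrp (CPM, vertical axis) in each of the 4 brains (horizontal axis), HQJE in blue and LQJE in red. Points are brains, bars are exact Poisson 95% intervals of the count, and dashed lines are the group means of 1.22 CPM (HQJE) and 6.22 CPM (LQJE); the intervals of the 4 brains do not overlap, also within a group.

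Each brain differed from every other brain by more than counting error. The level in HQJE fish 11 was 2.84 times that in HQJE fish 15 (exact 95% interval of the ratio of counts 1.51 to 5.65). The level in LQJE fish 17 was 2.03 times that in LQJE fish 18 (interval 1.54 to 2.68). Across groups the nearest pair was HQJE fish 11 over LQJE fish 18, with a ratio of 0.440 (interval 0.298 to 0.640), and the farthest was HQJE fish 15 over LQJE fish 17, with a ratio of 0.0764 (interval 0.0405 to 0.133). The step between the groups, 2.27-fold at its narrowest, was thus of about the same size as the difference between the 2 brains of one group. With the counts of each group pooled, the ratio of HQJE over LQJE was 0.218 (interval 0.159 to 0.295), which again covers counting error only and not the difference among fish.

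Among all 18474 transcripts agrp was a transcript of low read number, and its place in the order differed among the brains. It was 15512th from the top in HQJE fish 15 and 13832nd in HQJE fish 11, against 9923rd in LQJE fish 17 and 11606th in LQJE fish 18. In other words, 15.5% and 24.9% of transcripts had a lower level in the HQJE brains, against 46.1% and 37.1% in the LQJE brains. The median transcript was at 9.78 and 10.3 CPM in the HQJE brains and at 10.2 and 9.60 CPM in the LQJE brains, which is a much narrower range than that of agrp. These ranks are of reads per transcript without division by transcript length, which was not used here, so they do not order genes by number of RNA molecules.

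The comparison of HQJE with LQJE asked which brain transcripts differed with juvenile environment, and agrp was one of those past the threshold of the study (unadjusted p of 0.01 or less and at least a 2-fold change). Its log2 fold change, HQJE over LQJE, was -2.33 with a standard error of 0.597, a 5.03-fold lower level in HQJE fish. The quasi-likelihood test of edgeR gave it an unadjusted p of 0.00881 and, after Benjamini-Hochberg adjustment over all tested transcripts, 0.622. At this threshold 0.189% of all tested transcripts were called (35 of 18474), with 0.141% lower (26) and 0.0487% higher (9) in HQJE fish, and agrp had the 229th smallest p. The study reported more calls at this threshold, from an edgeR test that it does not name. The edgeR exact test gave 133 calls, close to the number in the study, with 84 lower and 49 higher in HQJE fish. In the quasi-likelihood test without TMM scaling, 21 were lower and 19 were higher. The balance of directions also turned with the brains included: 16 of 56 calls were lower without HQJE fish 15, against 314 of 348 without LQJE fish 18. The quasi-likelihood test of edgeR left no transcript at or under 0.05 after adjustment, where 1403 (7.59%) were at or under 0.05 before it, while the edgeR exact test left 35 after adjustment, the edgeR likelihood ratio test 42 and DESeq2 79. In the edgeR exact test agrp itself had an adjusted p of 0.04998, just under that limit. An exact permutation of 2 brains against 2 cannot give a two-sided p below 0.333.

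Agrp was lower in HQJE fish in each fit that left out 1 brain, but it passed the threshold in 1 of these 4 fits. The direction could not turn in these fits, since both HQJE brains lay below both LQJE brains in level. Each such fit leaves 1 group with a single brain, which is assumed to vary like the brains of the other group. Leaving out HQJE fish 15 gave a log2 fold change of -1.77 (unadjusted p 0.0241 in the same edgeR test) and leaving out HQJE fish 11 gave -3.27 (p 0.00292). Leaving out LQJE fish 17 gave -1.75 (p 0.0481 in the edgeR test) and leaving out LQJE fish 18 gave -2.74 (p 0.0107), a larger difference than with all 4 brains. Of these fits, the one that omitted HQJE fish 11 alone was past the threshold. In the plot of settings each of the 11 fitted values, standard error included, lies below 0. These fits share the same fish and 1 standard error is a narrow bound, so the fits are not separate evidence. Their scaling and filter alternatives cluster between -2.33 and -2.25.

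**Figure D2:**
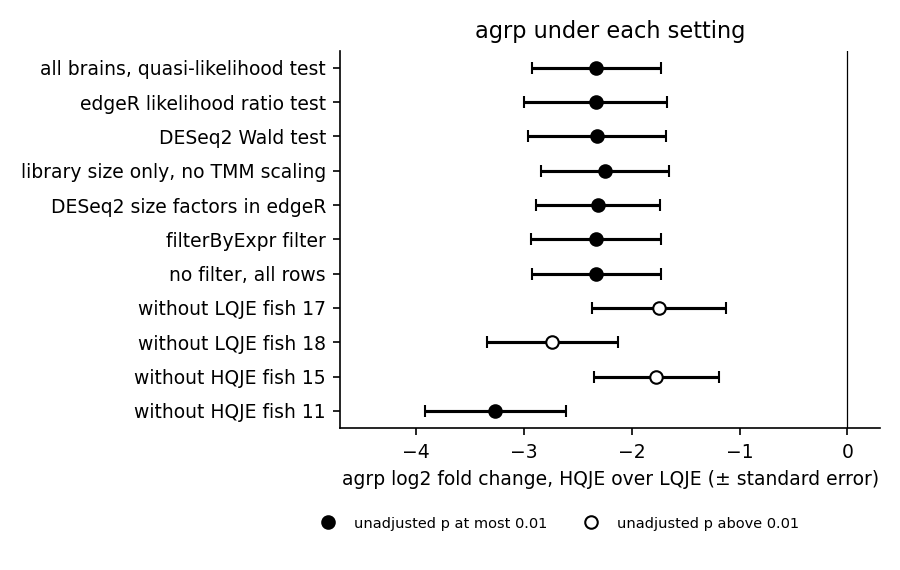
The log2 fold change of agrp, HQJE over LQJE (horizontal axis), under each setting (vertical axis). Points are fitted values, bars are 1 standard error, filled points have an unadjusted p of 0.01 or less and open points a larger one; values run from -3.27 without HQJE fish 11 to -1.75 without LQJE fish 17, and the 3 open points are the fits without fish 17, 18 or 15. The edgeR exact test gives no standard error and is not drawn.

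A difference of this size was rare among transcripts that were read about as often as agrp. The mean of agrp over the 4 brains was 3.72 CPM, and 2183 other transcripts had a mean within 1.5-fold of it (2.48 to 5.58 CPM). Their median log2 fold change was 0.0019 and their quartiles were -0.26 and 0.25, against a median of -0.019 over all tested transcripts. Of all tested transcripts, 7.89% changed 2-fold or more in either direction, and 2.21%, agrp included, changed at least as much as agrp. Of the 2183, 109 (4.99%) changed 2-fold or more in either direction, and 15 (0.687%) had an absolute log2 fold change at least as large as that of agrp. Ordered by log2 fold change, agrp was 15th from the lowest of 2184, and by p it was 12th. In these transcripts the threshold was passed by 11 (0.504%), of which 10 were lower (0.458%) and 1 was higher (0.0458%) in HQJE fish. This split did not hold with each brain left out, since 3 of 11 calls were lower without HQJE fish 15, while 93 of 96 were lower without LQJE fish 18.

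**Figure D3:**
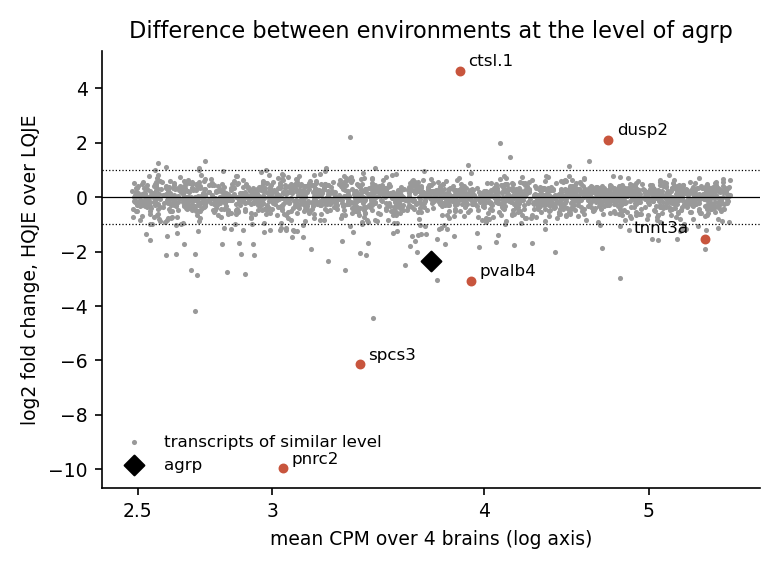
Log2 fold change, HQJE over LQJE (vertical axis), against mean CPM over the 4 brains (horizontal log axis), for agrp (black diamond) and the 2183 transcripts of similar level (grey), some of them named (red). Dotted lines mark a 2-fold change. Agrp lies at -2.33, outside nearly all of the grey points. The fitted value of pnrc2, with 0 counts in both HQJE brains, depends on the prior count of the fit. That of spcs3 rests on 4 and 0 counts in HQJE fish 15 and 11.

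Within each brain, agrp moved across the range of these transcripts of similar level. In the brain of HQJE fish 15 only 12 of the 2183 were lower than agrp (0.550%), and their median was 5.50 times its level. In HQJE fish 11, 67 were lower (3.07%), and the median was 2.13 times its level. In LQJE fish 17 agrp stood near the top, with 75 transcripts higher (3.44%) and a level 2.02 times the median. LQJE fish 18 was the brain in which agrp was most like the others, with 1515 lower (69.4%), 655 higher and a level 1.21 times the median. Both HQJE brains thus placed agrp near the bottom of the range, while 1 of the 2 LQJE brains placed it near the top. The 2183 transcripts were chosen to match agrp in mean level over these same brains. A lower level of agrp in HQJE fish therefore sets it, on average, low among them in HQJE brains and high in LQJE brains. Its places in the range largely restate the group difference and are not separate evidence.

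**Figure D4:**
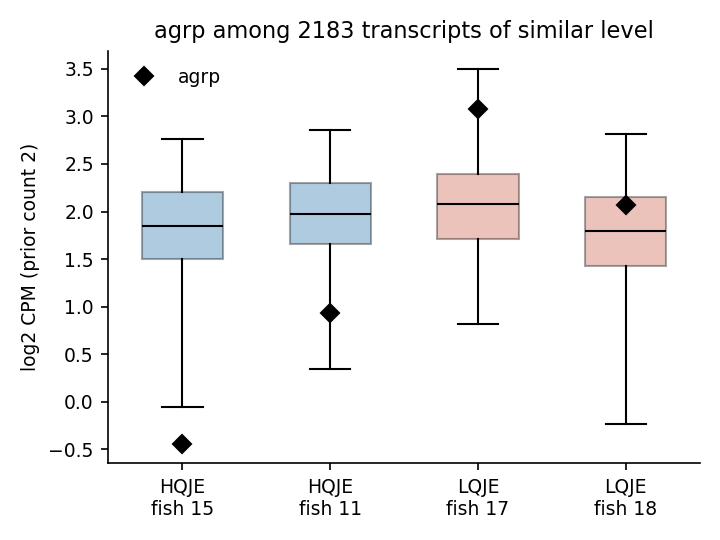
Level of agrp (black diamonds, log2 CPM with a prior count of 2, vertical axis) and of the 2183 transcripts of similar mean level in each brain (horizontal axis). Boxes are quartiles with the median, whiskers are the 1st and 99th percentiles; agrp is below the lower whisker in HQJE fish 15 and inside the box, above the median, in LQJE fish 18.

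The 2 fish of a group also differed more in agrp than in most of these transcripts. Between HQJE fish 11 and 15 the log2 difference of agrp (CPM with a prior count of 2) was 1.38, against a median absolute difference of 0.30, and only 40 of the 2183 transcripts (1.83%) differed as much. Between LQJE fish 17 and 18 it was 1.01 against a median of 0.35, and 322 transcripts (14.8%) differed as much. These transcripts match agrp only in the mean over the 4 brains. In HQJE fish 15 and 11 their median was 5.50 and 2.13 times its level, so agrp had fewer reads and more counting error there than most of them. The estimated biological coefficient of variation was 41.7% for agrp, against a median of 27.0% for transcripts of similar level, and the standard error of its log2 fold change was 0.597 against a median of 0.311. Agrp therefore combined a large difference between the groups with a large spread inside them.

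In agrp the groups did not overlap. This was so for 39.9% of all tested transcripts in either direction, and for 21.1% in the direction lower in HQJE fish. Among transcripts of similar level the groups did not overlap in 33.9% in either direction and in 14.2% (310 of 2183) in the direction of agrp, so separation alone does not set agrp apart. Its narrowest step between groups was wider than in most of them, however. On the log2 scale with a prior count of 2, the step between HQJE fish 11 and LQJE fish 18 was 2.21-fold. A step as wide in this direction was found in 4 of the 2183 transcripts, and in 25 of all 18474 tested transcripts, agrp included. This measure was chosen after the values were seen. The 4 of similar level were spcs3, pvalb4, tnnt3a and 1 of the transcripts named tnni2a.4. The first encodes a subunit of the signal peptidase complex, the second a calcium-binding parvalbumin, and the others fast skeletal muscle troponins.

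Most transcripts with as large a difference as agrp were high in 1 brain only. Of the 15, 14 were lower and 1 was higher in HQJE fish, and 13 had over 75% of their summed CPM in 1 brain. So large a share in 1 brain was found in 0.916% of the 2183 transcripts and in 2.51% of all tested. Of the 13, this brain was LQJE fish 17 in 12, such as bnipl with 8 and 5 counts in HQJE fish 15 and 11 and 180 and 3 counts in LQJE fish 17 and 18. In ctsl.1, a cathepsin gene, it was HQJE fish 15, with 323 counts, against 6 counts in the other HQJE brain and 1 and 11 counts in LQJE fish 17 and 18. The groups were separated in 3 of the 15, each lower in HQJE fish. In this direction they were separated in 14.2% of the 2183 and in 21.1% of all tested transcripts. Past the threshold and not carried by 1 brain were 2 of the 15, spcs3 and pvalb4. The threshold was passed by 0.504% of the 2183 and by 0.189% of all tested transcripts.

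The levels of spcs3 were 0.182 and 0 CPM in HQJE fish 15 and 11, against 4.49 and 8.85 CPM in LQJE fish 17 and 18. The levels of pvalb4 were 0.364 and 1.31 CPM in the HQJE brains, against 6.23 and 7.81 CPM in the LQJE brains in the same order of fish. In both the higher LQJE brain was fish 18, while in agrp it was fish 17. LQJE fish 17 was the highest of the 4 brains in 824 of the 2183 transcripts (37.7%), so that agrp shared its highest brain with many of them. Of all tested transcripts, 31.7% were highest in this brain. The full order of agrp, with LQJE fish 17 above LQJE fish 18, HQJE fish 11 and HQJE fish 15 in turn, was found in 91 (4.17%). Over all tested transcripts it was found in 874 (4.73%), agrp included, so this order does not set agrp apart.

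**Figure D5:**
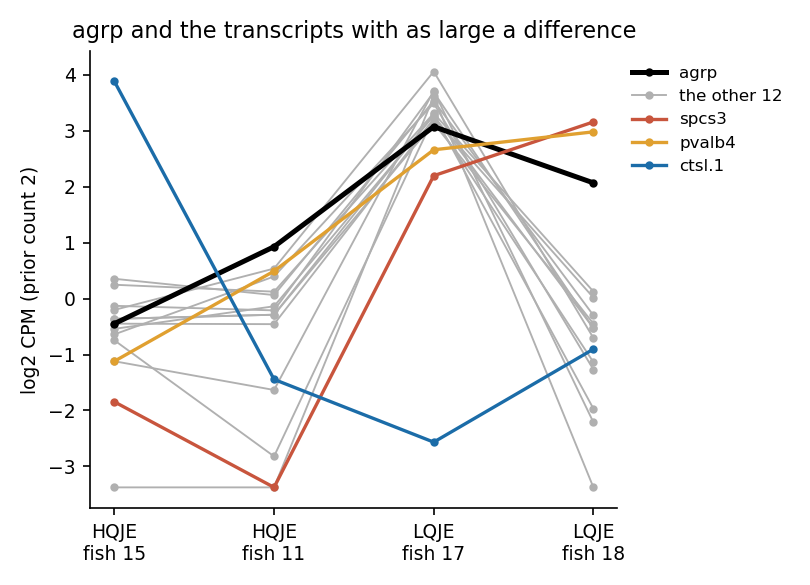
Level (log2 CPM with a prior count of 2, vertical axis) in each brain (horizontal axis) of agrp and of the 15 transcripts of similar mean level whose difference was at least as large. Each line is a transcript. The 12 grey lines peak in LQJE fish 17 and ctsl.1 peaks in HQJE fish 15. The levels of agrp, spcs3 and pvalb4 are higher in both LQJE brains than in both HQJE brains, as are those of ENSXMAT00000019756 among the grey lines.

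Likeness to agrp was measured over the 4 brains in the 15086 transcripts that averaged at least 1 CPM, as a description, since 4 points that share the libraries and their depth allow many close matches. A Pearson correlation of log2 CPM of at least 0.99 was found for 88 transcripts. The highest, above 0.999, was that of ENSXMAT00000017647, which was at 10.7 and 11.8 CPM in HQJE fish 15 and 11 and at 13.5 and 12.6 CPM in LQJE fish 17 and 18. It thus had the order of agrp but only a 1.26-fold range. By the distance between centred profiles, which takes the size of the differences into account, the nearest was ENSXMAT00000008388, at 0.273 and 0.904 CPM in the HQJE brains and 2.90 and 0.996 CPM in the LQJE brains (root mean square distance 0.41 on the log2 scale). None of the 5 transcripts nearest by one measure was among the 5 nearest by the other.

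The only one of these 10 with a gene name was zgc:63489, a zinc finger gene that the study pairs with human ZBTB7B. It was at 3.64 and 3.71 CPM in HQJE fish 15 and 11 and at 16.4 and 11.1 CPM in LQJE fish 17 and 18, with a distance of 0.56 from agrp. Its 2 HQJE brains were nearly equal, where those of agrp were not. HQJE over LQJE it changed by -1.89 on the log2 scale (standard error 0.251, adjusted p 0.622 in edgeR). With 1 brain left out its log2 fold change lay between -2.13 and -1.59. It was picked for its likeness to agrp, so a lower level in HQJE fish follows from the choice. Its name comes from the study's annotation, which covers transcripts selected on these same brains. The difference of zgc:63489 is thus not independent evidence.

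Of the genes listed for appetite, hormone release and energy metabolism, 11 beside agrp could be placed in the table through the study's annotation. That annotation covers transcripts the study selected on these same brains. Neither the directions nor the calls of the 11 are therefore independent evidence. By the quasi-likelihood test of edgeR, 2 of the 11 (spcs3 and tk1) passed the threshold as lower in HQJE fish. Another 2 (mogat3a and the gnrh1 homolog) passed it as higher. Of all tested transcripts 0.141% passed it as lower and 0.0487% as higher, which is not a like background for genes so selected. The gnrh1 homolog, named for the precursor of gonadotropin-releasing hormone, which preoptic neurons of fish release to drive the pituitary and testis, was the other neuropeptide gene of this list. It was at 15.2 and 18.1 CPM in HQJE fish 15 and 11, against 7.54 and 7.89 CPM in LQJE fish 17 and 18. The groups did not overlap, as in 39.9% of all tested transcripts, and the direction was opposite to that of agrp.

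The log2 fold change of the gnrh1 homolog was 1.11, with a standard error of 0.168 (edgeR, unadjusted p 0.000725 and adjusted p 0.622). It lay between 0.98 and 1.23 with each brain left out, and was below the 2-fold limit only without HQJE fish 11. The gene mogat3a, an acyltransferase of triglyceride synthesis, was at 11.9 and 25.2 CPM in the HQJE brains and at 6.45 and 5.02 CPM in the LQJE brains, and it stayed past the threshold in 1 of the 4 fits with a brain left out. The gene tk1, a thymidine kinase, was at 3.18 and 3.25 CPM in the HQJE brains and at 7.47 and 7.13 CPM in the LQJE brains and stayed past it in none, although its log2 fold change of -1.18 stayed between -1.19 and -1.15 in these fits, and the p alone (0.0107 to 0.0165 in edgeR) left the threshold. The gene socs3a encodes a suppressor of cytokine signalling, which in mammals dampens the leptin receptor. It was at 9.37 and 17.3 CPM in the HQJE brains and at 5.87 and 6.61 CPM in the LQJE brains. In the quasi-likelihood test it did not pass the threshold (edgeR, unadjusted p 0.0154), although the study names it as higher in HQJE males. By the same test abcc8, apoea, acvr2b, syt7a, xdh and pnrc2 did not pass the threshold either. The study names xdh and pnrc2 among its calls. All reads of pnrc2 were in LQJE fish 17 (168 counts) and all of acvr2b in HQJE fish 15 (18 counts). LQJE fish 17 held 74.3% of the summed CPM of syt7a, and apoea had at most 18 counts in any brain. In xdh the groups did not overlap, but in abcc8 they did. The receptors of the pathway and the pomc, npy and cart precursors were not analysed here.

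Most of the named transcripts of another tissue moved with the groups in the same direction as agrp. Of 8 transcripts of skeletal muscle genes, 7 were lower in both HQJE brains than in either LQJE brain, as were 21.1% of all tested transcripts, and 5 of these passed the threshold, as did 0.141% of all in this direction. The other, smyd1a, was at 2.46 and 17.2 CPM in HQJE fish 15 and 11, against 1.52 and 1.43 CPM in LQJE fish 17 and 18, and did not pass it. The summed level of the 8 was 14.4 and 25.4 CPM in HQJE fish 15 and 11, against 34.5 and 29.4 CPM in LQJE fish 17 and 18. Without smyd1a, left out after its values were seen, it was 11.96 and 8.18 CPM in the HQJE brains, against 32.98 and 27.97 CPM in the LQJE brains, and mylpfa had 0 counts in both HQJE brains. By comparison, 3 transcripts of pineal and photoreceptor genes summed to 72.8 and 21.96 CPM in the HQJE brains and to 16.2 and 13.2 CPM in the LQJE brains, with fscn2a at 0 counts in HQJE fish 15 and in both LQJE brains. None of these 3 passed the threshold (edgeR, unadjusted p 0.0221 to 0.0916), and tph1a alone held 61.4 of the 72.8 CPM in HQJE fish 15. All these transcripts belong to the set that the study selected on these brains. Their calls are therefore not independent evidence, and the shares of all tested transcripts are not a like background for them. The part of either tissue in the difference of agrp was not tested.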

How the data were processed

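Quality-filtered reads were mapped by the authors with Bowtie2 to 18872 *X. multilineatus* transcripts, which carry the identifiers of their *X. maculatus* counterparts, and the deposited values are raw counts of reads per transcript and brain. As to pairs, strands and multiple matches, the counting rule is not given in the sources used, so reads from a near-identical copy of agrp could be included. Groups came from the sample titles, which spell them with 2 letters exchanged. Transcripts with a count were tested with edgeR 4.0.16 (R 4.3.3, limma 3.58.1), TMM scaling and the quasi-likelihood test. CPM used TMM-scaled library sizes (factors 0.967 to 1.04). Standard errors were derived from the test, as the size of the log2 fold change over the root of its F statistic. Total counts were 14260762 to 25531496, and 1 read was worth 0.0398 to 0.0725 CPM. Each pair of brains differed by more than sampling noise (chi-square over its degrees of freedom 14.9 to 29.7). Each p-value sets the difference between the groups against the spread between the 2 fish within each group. That spread was estimated partly from all transcripts.

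Alternatives were the edgeR exact and likelihood ratio tests, DESeq2 1.42.0, other scalings, filters and level windows, and each brain left out. The code was tested on simulated data. The gene, the lists and the tests were chosen with earlier results of these data known. Genes named were agrp, those nearest to it in profile (5 by each measure), the appetite and marker lists as far as identifiers were paired with names, and, chosen after their values were seen, transcripts with a difference or step as large as that of agrp. Columns of fold changes and p-values in the study's annotation list were not used.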

Additional observations from a re-analysis of the deposited data

How the results depend on the processing

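Agrp kept its direction in each of the 11 alternatives, which follows from the lack of overlap between its groups. It kept its side of the threshold in 8 of them. With each brain left out the log2 fold change ranged from -3.27 to -1.75, and 3 of these fits lost the call. All transcripts past the threshold numbered 35, against 133 in the edgeR exact test, 121 in the likelihood ratio test, 53 in DESeq2 and 56 to 348 with a brain left out (348 without LQJE fish 18). In these calls 74.3% were lower in HQJE fish, against 52.5% without TMM scaling, 28.6% without HQJE fish 15 and 90.2% without LQJE fish 18. At the level of agrp 11 were past the threshold, against 26, 20 and 18 in those tests, 11 to 96 with a brain left out (96 without LQJE fish 18), 4 in the narrower window of level and 18 within 2-fold. The share of similar transcripts with as large a difference was 0.687% (exact 95% binomial interval 0.385% to 1.13%). This interval treats the transcripts as independent, although they share the same 4 brains and 12 of the 15 were carried by LQJE fish 17. It does not cover the difference among fish. The share was 0.580% to 1.59% with a brain left out, and 0.0925% without transcripts carried by 1 brain. That last alternative was chosen after seeing the data. By its construction it removes 13 of the 15 transcripts with so large a difference and keeps agrp. DESeq2 gave agrp an unadjusted p of 0.000266. Adjusted p-values of single transcripts from DESeq2 are not given here. Over the other alternatives, the adjusted p of agrp in edgeR lay between 0.04998 and 0.998. With the filterByExpr filter, agrp was above 4.13% and 14.5% of transcripts in the HQJE brains and above 38.7% and 28.4% in the LQJE brains. The causes of these shifts were not tested. No paired analysis was possible because the sources used give no pairing of fish between the groups. With 14 to 115 counts per brain, the counting intervals of agrp leave out the difference among fish, which 2 fish per group estimate.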
